A study of Mus musculus with 24 samples.

Results

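Kidneys of mice lacking Lrp2 in the proximal tubule were compared with kidneys of wild-type littermates after 2 weeks of a Western-type diet. The comparison used the 6 libraries whose titles begin with KO_WD2 and the 6 whose titles begin with WT_WD2, which were 12 of the 24 libraries of the series; the remaining libraries hold the same genotypes after 12 weeks of diet. Both groups ate the diet, of unstated composition, and no group on another feed was analysed, so the values describe the genotype on this diet. The labels give the genotype as KO or WT and also use the name LRP2-SM22 without explaining it. Neither the promoter that drove the deletion, nor the deleted exons, nor the age and sex of the mice could be taken from the labels. All 12 libraries held transcripts of Y-linked genes. The series title names tubulointerstitial nephritis, and the comparison asks how the kidney transcriptome of the knockout stood at the earlier of the 2 times.

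Megalin, the protein made from Lrp2, is a very large endocytic receptor in the brush border of the proximal tubule. Together with cubilin, the cubilin partner amnionless and the adaptor Dab2, it captures filtered albumin, small hormones and the carriers of retinol, cobalamin and vitamin D, and the cargo is broken down in lysosomes or returned to the blood. The same cells recover amino acids, glucose, phosphate and sulfate through brush border transporters, export organic acids and make glucose. Injured tubule cells are known to lose these functions, to express keratins and the markers Lcn2 and Havcr1, and to release cytokines downstream of the transcription factor NF-kappa B.

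Totals ranged from 15.6 to 34.1 megacounts (M) for the wild-type libraries and from 16.3 to 25.2 M for those of the knockout. Levels below are in CPM (counts per megacount after TMM scaling of the library) and are given as the lowest, the median and the highest of the 6 libraries of a group. A gene is said to have risen or fallen where it passed edgeR's quasi-likelihood test at a Benjamini-Hochberg adjusted p under 0.05, taken over 16822 tested genes. By this rule 31.6% of the genes passed, 18.1% higher (3049) and 13.4% lower (2259) in knockout; with library size as the sole scaling, 4457 were higher and 1137 lower, and the median gene moved up by 0.13 on the log2 scale. Under that scaling 17 of the genes named below as fallen missed the threshold: Amn, Bmp4, Bmp7, Cdh2, Folr1, Hnf4a, Ift172, Il11ra1, Klk1, Nlrc4, Nod2, Nphs1, S100g, Slc26a1, Sod1, Timp3 and Upk1a. With all 24 libraries in 1 fit Bmp7, Cyp4a12a, Nod2, Slc38a1, Ttr and Upk1a lost their calls, and without a filter on low counts Arl13b, Cyp27b1, Cyp4a12a, Klk1, Nod2, Timp3, Ttr and mt-Nd2 did. Where a call below was gained or lost when 1 of the 12 libraries was left out, the number of such libraries is given, with their names where there were few. In 10.8% of tested genes every knockout library lay above every wild-type library, and in 5.56% every knockout library lay below. Counts of list members below are to be read against these shares of all tested genes. Rises were larger than falls: the median log2 fold change was 0.85 among genes that rose and -0.42 among those that fell, against -0.01 over all tested genes, and 7.68% rose but 1.06% fell by at least 1. The first principal component held 53.2% of the variance and separated the genotypes. Knockout replicate 2 stood apart on the second (8.6% of the variance) and had 10.1% of its counts on mitochondrially encoded genes, against 5.6% to 6.9% in the other knockout libraries and 8.1% to 9.8% in wild type; without it 3335 genes were higher and 2599 lower. Whether the libraries of a group stem from different mice is not said in the labels, and p-values then capture just the spread among these samples, which may be technical. The organ label was checked with defining markers: those of the proximal tubule, thick ascending limb, distal tubule, collecting duct, podocyte and endothelium were present in every library of both groups, and those of pancreas and skeletal muscle summed to at most 0.162 and 0.412 CPM. Adipocyte markers were uneven, with a sum of 0 to 27.1 CPM in wild type, highest in replicate 4, and 0.165 to 5.24 CPM in knockout, and red cell markers summed to 23 to 90.8 and 9.24 to 163 CPM; none of the 3 tested markers of either list passed. No source used here gives the strand setting of the counting. Genes with at least 10% of their exon bases under an annotated gene on the opposite strand are therefore marked as overlapped, since reads of such a pair cannot be told apart.

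The deleted gene was checked in every library. Lrp2 stood at 1643, 2115 and 2365 CPM in wild type and at 208, 358 and 608 CPM in knockout, and no knockout library reached the level of a wild-type library. The knockout mean was 0.179 of wild type (log2 fold change -2.48 with SE 0.23, adjusted p = 2.2e-06 in edgeR). The other receptor genes of the endocytic apparatus moved in both directions. Amn, which encodes amnionless, stood at 125, 138 and 157 CPM in wild type and 76.5, 113 and 124 CPM in knockout and fell to 0.778 of wild type (edgeR adjusted p = 0.0077). Lrpap1, the chaperone RAP that escorts receptors of this family through the secretory pathway, fell to 0.771 (edgeR adjusted p = 0.0019), and the folate receptor gene Folr1 (overlapped) to 0.81 (edgeR adjusted p = 0.0078). The cubilin gene Cubn (overlapped) did not pass, with a log2 fold change of -0.19 (SE 0.17), nor did Dab2, with -0.11 (SE 0.12). The related receptor gene Lrp1, whose protein is found in many cell types, rose from 37.7, 44.4 and 49 CPM to 59.7, 84.3 and 128 CPM, without overlap of the groups (log2 fold change 0.99 with SE 0.14, adjusted p = 4.3e-05 in edgeR). In the whole receptor list, which counts the deleted Lrp2 itself among the falls, 3 of 12 genes rose and 4 fell. Over all tested genes 18.1% rose and 13.4% fell. The list had a median log2 fold change of -0.09 (0.04 with library size as the sole scaling). Of 14 genes of endosomal traffic 3 fell, none rose and the median was -0.06 (0.07 with library size as the sole scaling). Rab11fip3 (overlapped), an effector of recycling endosomes, fell to 0.763 of wild type (edgeR adjusted p = 0.0011), while the chloride channel gene Clcn5 and the lipid phosphatase gene Ocrl, both known from inherited tubular proteinuria, did not pass, with log2 fold changes of -0.11 and 0.05. Of 25 lysosomal genes 8 rose and 3 fell, with a median of 0.15. Gpnmb and the cathepsin gene Ctss, both well known from macrophages, had log2 fold changes of 3.85 and 2.58 (edgeR adjusted p = 3.6e-06 and 5.0e-06), whereas the cathepsin genes Ctsd and Ctsb (overlapped) had 0.61 and 0.33 (edgeR adjusted p = 6.5e-05 and 0.0054).

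**Figure D1:**
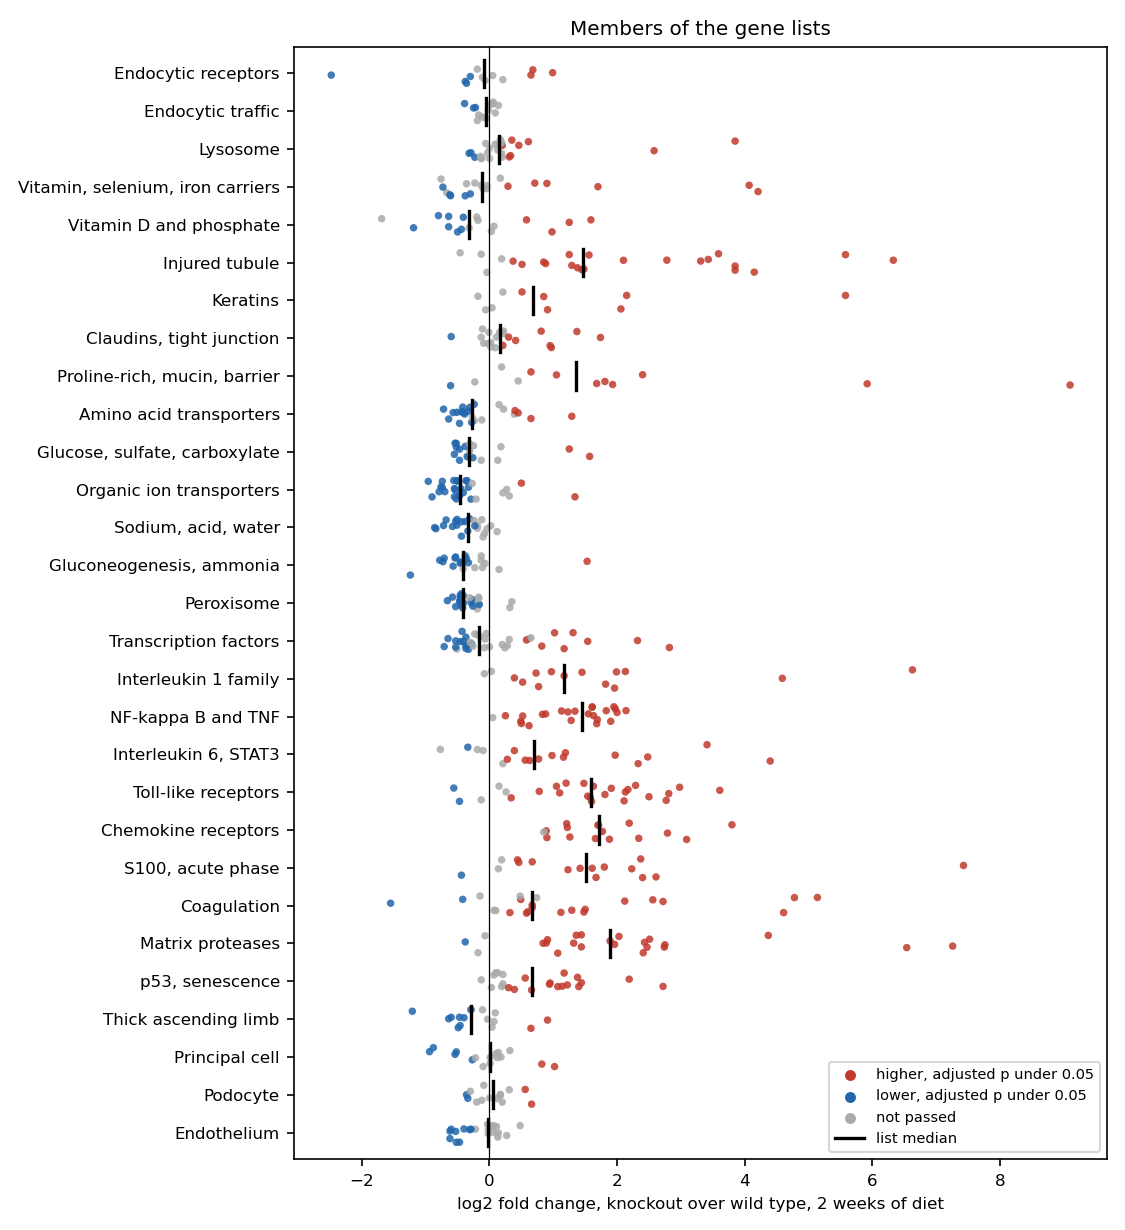
Each point is a tested member of a gene list, placed by its log2 fold change of knockout over wild type (x axis); colour shows whether it passed the edgeR test and the black bar is the list median. Lists of transporters, peroxisomes and gluconeogenesis have medians between -0.28 and -0.47, and the list of matrix proteases has the highest median shown, 1.89.

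By difference of mean CPM, the largest gain that passed was that of Spp1 and the largest loss that of mt-Co1. Spp1, the gene for the phosphoprotein osteopontin, stood at 401, 507 and 585 CPM in wild type and 4786, 9907 and 10700.0 CPM in knockout. Complement C3 went from 11.8, 16.5 and 26.8 to 236, 454 and 510.2 CPM and the chaperone gene Clu, for clusterin, from 112, 176 and 214 to 871, 1182 and 1486 CPM; for each of these genes all knockout libraries lay above all wild-type libraries (edgeR adjusted p between 6.0e-11 for Spp1 and 3.8e-08 for C3). Igha, the constant region of immunoglobulin A, spread widely among knockout libraries, from 173 to 998 CPM against 58.9 to 148 CPM in wild type (log2 fold change 1.91 with SE 0.41, adjusted p = 0.0048 in edgeR). Apoe, the apolipoprotein made by macrophages among other cells, rose 3.07-fold and the actin-binding gene Tmsb4x 2.81-fold (edgeR adjusted p = 0.00016 and 8.9e-08). Among nuclear genes the largest losses that passed were in Gpx3, the secreted glutathione peroxidase of the proximal tubule, at 14460.0, 17840.0 and 24110.0 CPM in wild type and 9292, 11820.0 and 14950.0 CPM in knockout, in Acsm2, Pck1 and Slc34a1. The groups overlapped for Gpx3 but not for the acyl-CoA synthetase gene Acsm2, which fell to 0.592 of wild type (edgeR adjusted p = 0.0025 and 0.00014). Reads of Acsm2 may be confused with those of its close paralogs. The mitochondrially encoded genes among the 10 largest losses that passed (mt-Co1, mt-Cytb, mt-Nd2, mt-Nd1 and mt-Nd4) had log2 fold changes between -0.65 and -0.45, and their groups overlapped; in knockout replicate 2 mt-Co1 stood at 37560.0 CPM, the highest of the knockout libraries, whose median was 24560.0 CPM.

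Among genes with a mean of at least 5 CPM and no overlap of the groups, Ctxn3 fell further than Lrp2 itself, and the other large falls were in genes of varied function. The log2 fold change was -2.91 for Ctxn3 (overlapped), -1.81 for Nepn, -1.59 for Perm1 and -1.57 for Pde6a (edgeR adjusted p between 4.8e-08 and 2.0e-05). Coch, which encodes the extracellular protein cochlin, stood at 8.65, 11.3 and 14.7 CPM in wild type and 2.17, 2.64 and 4.03 CPM in knockout, a fall to 0.247 of wild type (edgeR adjusted p = 7.2e-08). Perm1, a muscle and mitochondrial regulator linked to the coactivator PGC-1 alpha, stood at 9.5, 12.5 and 13.6 and 3.13, 3.77 and 5.32 CPM. Carbonic anhydrase gene Car3 fell to 0.376 of wild type, from 39.4, 45.2 and 52.7 CPM to 10.7, 15.6 and 31.6 CPM (edgeR adjusted p = 0.00054). At the other end Lgi2 spread widely among knockout libraries, from 5.14 to 31.9 CPM against at most 0.642 CPM in wild type (log2 fold change 5.51 with SE 0.64, adjusted p = 5.1e-05 in edgeR), and Fcrls, an Fc receptor-like gene of myeloid cells, from 4.97 to 22.9 CPM against at most 0.603 CPM (log2 fold change 4.90 with SE 0.48, adjusted p = 5.1e-06 in edgeR).

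Genes of the injured and dedifferentiated tubule rose in 20 of 24 cases and none fell, with a median log2 fold change of 1.46, read against 18.1% of all tested genes higher. Havcr1, the gene for the shed injury marker KIM-1, stood at 2.89, 28.6 and 47 CPM in wild type and 175, 288 and 378 CPM in knockout (log2 fold change 3.43 with SE 0.62, adjusted p = 0.0017 in edgeR). Wild-type libraries differed among themselves more than 16-fold for this gene, yet every one lay below every knockout library. Sox9, a transcription factor of repairing tubules, rose 11.9-fold to 4.91, 10.5 and 14 CPM, and Cd44, a hyaluronan receptor, 10.1-fold to 15.3, 27.7 and 34.7 CPM (edgeR adjusted p = 5.8e-09 and 2.8e-09). The adhesion molecule gene Vcam1 rose 14.4-fold to 76.6, 151 and 164 CPM (log2 fold change 3.85 with SE 0.18, adjusted p = 4.3e-09 in edgeR). Smaller rises were seen for the progenitor markers Vim, 2.6-fold, and Prom1, 1.42-fold (edgeR adjusted p = 9.0e-07 and 7.3e-05). The nephron-lineage genes Pax2 and Pax8 (overlapped) did not pass, with log2 fold changes of -0.13 and 0.19. Pax8 passed without knockout replicate 5 (edgeR adjusted p = 0.024).

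Keratins of simple and stressed epithelia rose in 6 of 10 cases and none fell, with a median of 0.68. Krt20, a keratin of urothelium and injured tubules, held 0 to 0.535 CPM in wild type and 7.01, 10.7 and 15.9 CPM in knockout (log2 fold change 5.58 with SE 0.39, adjusted p = 3.1e-08 in edgeR). Krt18 stood at 10.1, 13 and 17.6 CPM in wild type and 42.4, 58.2 and 62.7 CPM in knockout, and Krt19 at 2.71, 3.83 and 4.6 and 12.7, 15.9 and 21.2 CPM; neither pair of groups overlapped. Krt18 and Krt19 rose 4.18- and 4.47-fold (edgeR adjusted p = 3.0e-09 and 1.1e-08), and Krt8 (overlapped), whose protein pairs with that of Krt18, 1.8-fold (edgeR adjusted p = 2.0e-06). Among 21 claudin and tight junction genes 8 rose and 1 fell, with a median of 0.16. Cldn4, a claudin of the distal nephron, stood at 13.7, 17.4 and 25.4 CPM in wild type and 40.7, 64.8 and 80.3 CPM in knockout (log2 fold change 1.74 with SE 0.18, adjusted p = 6.5e-06 in edgeR). Cldn1 and Cldn7 rose 1.96- and 1.94-fold (edgeR adjusted p = 2.9e-05 and 3.4e-06). The gene that fell was Cldn10, a claudin of the proximal tubule and thick ascending limb, at 0.66 of wild type (edgeR adjusted p = 1.4e-05), and the leaky claudin of the proximal tubule, Cldn2, did not pass (-0.09, SE 0.11). Adhesion genes rose in 14 of 21 cases and 1 fell (median 0.46): P-cadherin Cdh3 rose 2.44-fold and the leukocyte ligand Icam1 (overlapped) 3.4-fold, and N-cadherin Cdh2, the main cadherin of the mouse proximal tubule, fell to 0.742 (edgeR adjusted p = 9.9e-08, 1.8e-07 and 0.027). Cdh2 lost its call without wild-type replicate 2, wild-type replicate 3, knockout replicate 1 or knockout replicate 4 (edgeR adjusted p up to 0.071).

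Barrier and small proline-rich genes of stressed epithelia rose in 8 of 12 cases and 1 fell, with a median of 1.36, which is the same when Sprr2f takes its lower bound. No wild-type library held a read of Sprr2f, which reached 2.28, 3.48 and 4.54 CPM in knockout and was thus at least 138-fold higher than a floor set at 3 counts in the wild-type libraries summed. Sprr2g had 9 counts in wild type in all and 2.83, 4.87 and 6.03 CPM in knockout, a 65.6-fold ratio of the summed libraries with a 95% counting interval of 34.3 to 144. Members of the Sprr2 family are near-identical, so reads may be divided between copies. The mucin gene Muc1 went from 9.11, 9.74 and 14.4 CPM to 32.6, 37.5 and 50.1 CPM without overlap (log2 fold change 1.81 with SE 0.13, adjusted p = 2.1e-08 in edgeR). Sprr1a rose 3.25-fold and the secreted inhibitor gene Wfdc2 2.07-fold (edgeR adjusted p = 1.7e-06 and 4.4e-06). Wfdc15b was the member that fell, to 0.656 of wild type (edgeR adjusted p = 9.7e-05). Of the urothelial uroplakin genes, Upk1a fell to 0.671 (edgeR adjusted p = 0.034), and Upk2 and Upk3a did not pass (log2 fold changes -0.98 and -0.31). Upk1a lost its call in 6 of the 12 leave-outs (edgeR adjusted p up to 0.084). Upk2 passed without knockout replicate 3 (edgeR adjusted p = 0.0053). DESeq2 gave Upk2 an adjusted p of 0.043.

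**Figure D2:**
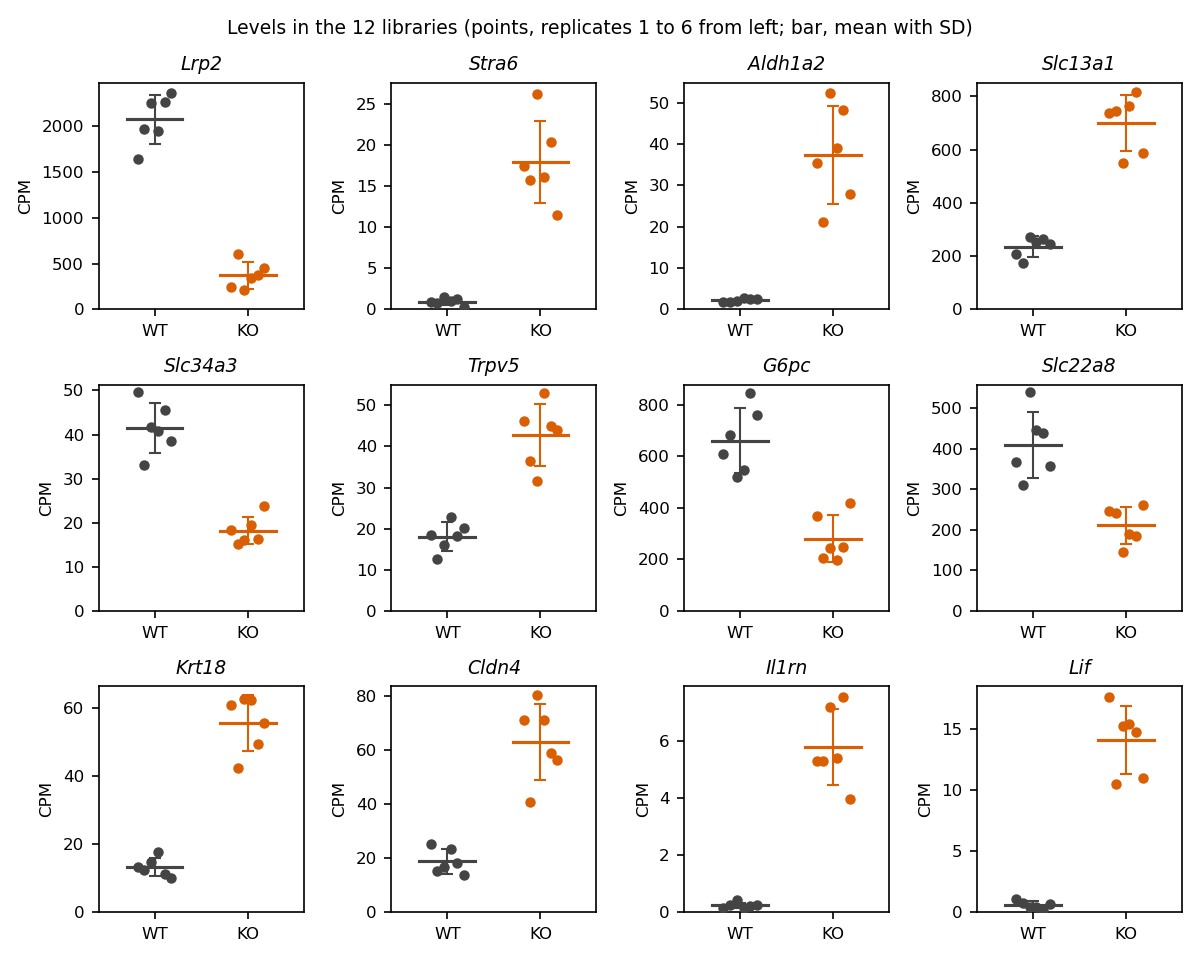
CPM (y axis, from 0) of 12 genes in the 6 wild-type (WT) and 6 knockout (KO) libraries; each point is a library and the bars are the mean with SD. In each of the 12 panels the knockout libraries lie wholly on one side of the wild-type libraries, below them for Lrp2, Slc34a3, G6pc and Slc22a8.

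Transporter genes of the proximal tubule were mostly lower in knockout, by modest factors. Of 93 transporter and brush border genes in 4 lists, 75 had a lower mean in knockout and 18 a higher one. Organic ion and drug transporters fell most often, in 22 of 29 cases with 2 higher and a median of -0.47. Slc22a8, the organic anion transporter OAT3 of the basolateral membrane, stood at 311, 404 and 539 CPM in wild type and 144, 216 and 261 CPM in knockout, without overlap (log2 fold change -0.96 with SE 0.15, adjusted p = 0.00015 in edgeR). The urate transporter gene Slc22a12 (overlapped) fell to 0.591 of wild type, from 1068, 1188 and 1374 CPM to 507, 739.6 and 802 CPM (edgeR adjusted p = 2.0e-05). The anion transporter gene Slc22a13 fell to 0.576 and the thyroid hormone and digoxin carrier gene Slco4c1 to 0.535 (edgeR adjusted p = 6.1e-06 and 9.7e-06). The members that rose were efflux pumps: Abcc3 went from 3.29, 3.71 and 3.98 CPM to 7.06, 8.96 and 12.2 CPM without overlap (log2 fold change 1.34 with SE 0.15, adjusted p = 2.5e-06 in edgeR), and Abcc4 rose 1.42-fold (edgeR adjusted p = 0.00066). Several Slc22a genes lie in clusters of similar copies, so their separate values are uncertain.

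Amino acid transporter genes fell in 13 of 23 cases and rose in 4, with a median of -0.28. Slc6a19 (overlapped), the brush border carrier of neutral amino acids, fell to 0.606 of wild type, from 229.6, 248 and 326 CPM to 116, 163 and 191 CPM (edgeR adjusted p = 6.8e-05). Its basolateral counterparts Slc7a8 and Slc43a2 fell to 0.641 and 0.674 (edgeR adjusted p = 1.8e-05 and 4.7e-05). The 4 genes that rose serve amino acid uptake in growing cells: Slc7a5 (overlapped) 2.45-fold, Slc38a2 1.57-fold, Slc1a4 1.36-fold and Slc38a1 1.32-fold (edgeR adjusted p between 0.00013 and 0.012). Slc38a1 missed the threshold with all 24 libraries in 1 fit (edgeR adjusted p = 0.052). Slc7a5 stood at 1.26, 2.86 and 3.18 CPM in wild type and 4.5, 6.15 and 8.3 CPM in knockout, without overlap of the groups.

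Carriers of glucose, lactate, sulfate and carboxylates fell in 9 of 18 cases and rose in 2 (median -0.32). The glucose cotransporter gene Slc5a2 (overlapped) fell to 0.685 of wild type, from 268, 292 and 368 CPM to 188, 206 and 231 CPM (edgeR adjusted p = 7.7e-05). The other cotransporters, Slc5a1 and the lactate carrier Slc5a12, did not pass (log2 fold changes 0.13 and 0.18). Slc5a12 passed without wild-type replicate 3 (edgeR adjusted p = 0.045). Slc13a1, which recovers sulfate at the brush border, went the other way: it ranged from 173 to 273 CPM in wild type and stood at 550.3, 742 and 818 CPM in knockout, without overlap (log2 fold change 1.57 with SE 0.12, adjusted p = 2.7e-08 in edgeR). Its relatives for dicarboxylates, Slc13a2 (overlapped) and Slc13a3 (overlapped), fell to 0.722 and 0.699 (edgeR adjusted p = 0.0066 and 0.0027), and so did the basolateral sulfate exchanger gene Slc26a1 (overlapped), to 0.767 (edgeR adjusted p = 0.012). Slc16a3, the lactate exporter MCT4 of glycolytic cells, rose 2.38-fold from a low level of 0.835, 1.08 and 1.41 CPM (edgeR adjusted p = 0.0011). Genes of sodium, acid and water transport and of the brush border fell in 14 of 23 cases and none rose. Their median was -0.34 (-0.21 with library size as the sole scaling). Carbonic anhydrase 14, Car14 (overlapped), fell to 0.55, the sodium-proton exchanger gene Slc9a8 to 0.607, the scaffold gene Pdzk1 (overlapped) to 0.625 and the water channel gene Aqp1 to 0.703 of wild type (edgeR adjusted p = 0.00036, 9.0e-05, 0.00086 and 0.0011). Slc26a4, the pendrin gene, known from intercalated cells rather than the proximal tubule, fell to 0.558 (edgeR adjusted p = 4.0e-06). The peptidase genes Anpep and Enpep did not pass, with log2 fold changes of -0.12 and -0.08.

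**Figure D3:**
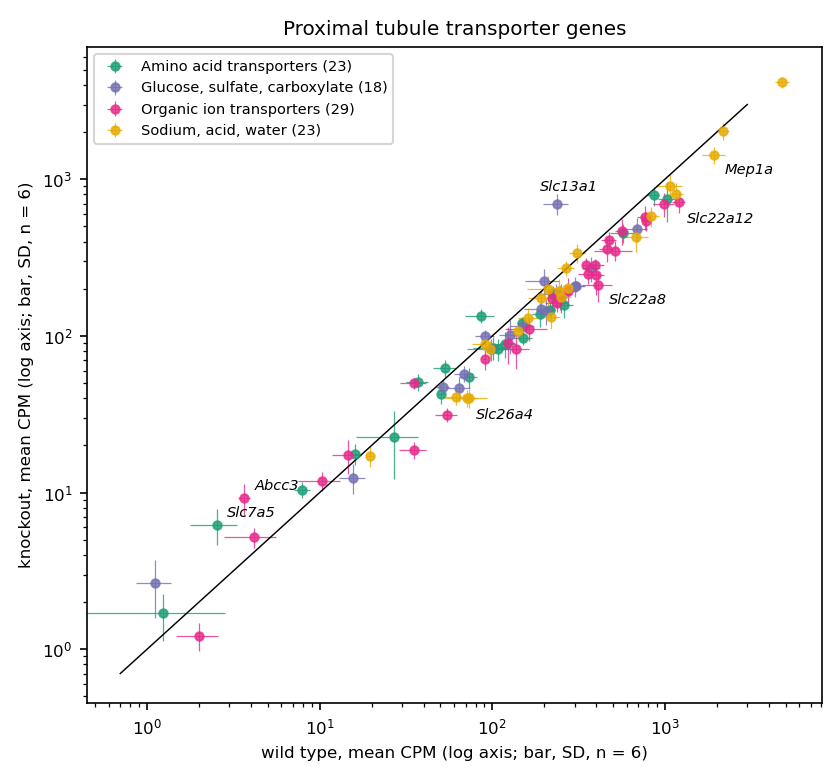
Mean CPM of 93 transporter and brush border genes in wild type (x axis) and knockout (y axis), both on log axes, with SD over 6 libraries as bars and the line of equal levels; colours are the 4 lists. Below the line lie 75 genes, and Slc13a1 stands farthest above it among genes over 100 CPM.

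Genes of phosphate and calcium handling moved in both directions: 4 of 17 rose and 7 fell. The median was -0.32 (-0.19 with library size as the sole scaling). The phosphate cotransporter gene Slc34a3 stood at 33.1, 41.3 and 49.6 CPM in wild type and 15.2, 17.3 and 23.8 CPM in knockout, and Slc34a1 (overlapped), which encodes a second cotransporter of the brush border, at 4305, 4775 and 5719 and 2533, 3293 and 3729 CPM. Neither gene's groups overlapped, and the levels in knockout were 0.439 and 0.643 of wild type (edgeR adjusted p = 3.1e-07 and 0.00033). The FGF23 coreceptor gene Kl, for klotho, fell to 0.643, the calcium-sensing receptor gene Casr to 0.574 and the vitamin D receptor gene Vdr to 0.707 of wild type (edgeR adjusted p = 0.0003, 5.6e-06 and 0.00085). In contrast the apical calcium channel genes rose. Trpv5 went from 12.5, 18.4 and 22.8 CPM to 31.6, 44.4 and 53 CPM and Trpv6 from 1.36, 1.67 and 2.69 to 3.9, 5.5 and 6.61 CPM, both without overlap (edgeR adjusted p = 2.8e-06 and 5.5e-06), while the calcium-binding S100g (overlapped), for calbindin-D9k, fell to 0.738 (edgeR adjusted p = 0.0069). Cyp27b1, which makes the active form of vitamin D, rose 1.92-fold with overlapping groups, 2.35, 3.99 and 10.4 CPM against 7.95, 9.36 and 15.3 CPM (edgeR adjusted p = 0.044). Cyp27b1 lost its call in 9 of the 12 leave-outs (edgeR adjusted p up to 0.092). Its counterpart Cyp24a1 (overlapped), which breaks active vitamin D down, did not pass: wild-type libraries spread from 14.6 to 136 CPM and knockout libraries from 4.12 to 31.6 CPM (log2 fold change -1.69 with SE 0.65, adjusted p = 0.073 in edgeR). Cyp24a1 passed without wild-type replicate 1 (edgeR adjusted p = 0.039). DESeq2 gave an adjusted p of 0.019.

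Genes that handle retinol and retinoic acid were among the largest rises of the carrier list, in which 6 of 20 genes rose and 5 fell (median -0.12, and 0.02 with library size as the sole scaling). Stra6, the membrane receptor that takes up retinol from its plasma carrier, stood at 0.257, 0.953 and 1.56 CPM in wild type and 11.6, 16.8 and 26.3 CPM in knockout. Aldh1a2, which makes retinoic acid, stood at 1.81, 2.27 and 2.73 and 21.2, 37.2 and 52.2 CPM. For both genes the lowest knockout library was several times the highest wild-type library, and the means differed 18.6- and 16.6-fold (log2 fold change 4.21 with SE 0.26, adjusted p = 1.1e-08 in edgeR for Stra6; log2 fold change 4.07 with SE 0.22, adjusted p = 5.5e-09 in edgeR for Aldh1a2). Gc, the vitamin D-binding protein gene, rose 1.86-fold (edgeR adjusted p = 7.5e-06). The plasma carrier genes of the retinol complex did not rise: Ttr fell to 0.603 of wild type (edgeR adjusted p = 0.021), and Rbp4 did not pass (log2 fold change -0.67, SE 0.50). Ttr missed the threshold with all 24 libraries in 1 fit and without a filter on low counts (edgeR adjusted p = 0.073 and 0.053). Rbp4 was highest in wild-type replicate 4, the library with the most adipocyte marker RNA, and its log2 fold change was -0.02 without that library; the part of these markers in the value was not tested. The cobalamin carrier gene Tcn2 fell to 0.653 of wild type, the iron exporter gene Slc40a1 rose 1.64-fold, and Selenop (overlapped), for the selenium carrier that megalin takes up, did not pass (edgeR adjusted p = 0.00038, 5.1e-06 and 0.12). Selenop passed without knockout replicate 2 (edgeR adjusted p = 0.0073).

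Metabolic genes of the proximal tubule were mostly lower. In the list of gluconeogenesis, fructose, glycerol and ammonia metabolism 13 of 21 genes fell and 1 rose (median -0.41). G6pc, the last enzyme of glucose production, stood at 519.8, 646 and 845 CPM in wild type and 197, 246 and 419 CPM in knockout, without overlap (log2 fold change -1.24 with SE 0.20, adjusted p = 0.00025 in edgeR). Pck1 fell to 0.605, Fbp1 to 0.692 and the urea cycle enzyme genes Ass1 and Asl to 0.583 and 0.613 of wild type (edgeR adjusted p = 0.0013, 0.0004, 0.00011 and 1.5e-05). Arg2 (overlapped), the mitochondrial arginase gene, was the member that rose, 2.89-fold to 12.8, 14.9 and 19.8 CPM (edgeR adjusted p = 2.0e-07). Of 24 peroxisomal genes 17 fell and none rose (median -0.41, and -0.28 with library size as the sole scaling). The D-aspartate oxidase gene Ddo fell to 0.728, the catalase gene Cat to 0.739 and the bifunctional enzyme gene Ehhadh to 0.633 (edgeR adjusted p = 7.5e-06, 0.0067 and 0.0026). In the list of xenobiotic enzymes 16 of 34 fell and 2 rose (median -0.36). Cyp1b1, a cytochrome of stromal cells, rose 2.42-fold (edgeR adjusted p = 1.2e-05). The androgen-dependent cytochrome gene Cyp4a12a fell to 0.321 with wide, overlapping groups of 212, 373 and 794 CPM and 47.4, 109 and 345 CPM (edgeR adjusted p = 0.036), and its near-identical copies make the value uncertain. Cyp4a12a lost its call in 9 of the 12 leave-outs (edgeR adjusted p up to 0.079). In a list of genes that differ between male and female mouse kidneys 7 of 16 fell and none rose, while the Y-linked gene Ddx3y did not pass (log2 fold change 0.03).

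Glycolytic genes did not move as a group: 3 of 19 rose, 5 fell and the median was -0.05 (0.06 with library size as the sole scaling). Hexokinase 2, Hk2, went from 0.385, 0.64 and 3.42 CPM to 3.47, 4.46 and 7.48 CPM and hexokinase 3, Hk3, rose 3.32-fold (edgeR adjusted p = 0.0039 and 7.0e-05), whereas Ldha, for lactate dehydrogenase A, did not pass (log2 fold change -0.05). In the list of NAD synthesis and tryptophan breakdown 4 of 19 rose and 8 fell: the methyltransferase gene Nnmt rose 4.1-fold and Parp14 2.18-fold, and Haao and the mitochondrial deacetylase gene Sirt3 (overlapped) fell to 0.686 and 0.681 of wild type (edgeR adjusted p = 2.6e-05, 1.2e-05, 0.00024 and 6.6e-05). Oxidant defence genes rose in 5 of 23 cases and fell in 8 (median -0.17, and -0.04 with library size as the sole scaling). Cybb, the phagocyte NADPH oxidase gene, rose 3.13-fold and the metallothionein gene Mt1 1.96-fold, and the superoxide dismutase genes Sod1 and Sod2 fell to 0.786 and 0.765 (edgeR adjusted p = 7.4e-08, 1.1e-06, 0.0066 and 0.0003). Nqo1, the usual readout of the transcription factor NRF2, did not pass (log2 fold change -0.07).

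Of 38 transcription factor genes of the nephron, 12 fell and 8 rose (median -0.17, and -0.04 with library size as the sole scaling). Hnf4a, the master factor of proximal tubule identity, fell to 0.795 of wild type with overlapping groups, 618, 730.4 and 822 CPM against 436, 583 and 684 CPM (edgeR adjusted p = 0.028). Hnf4a lost its call in 6 of the 12 leave-outs (edgeR adjusted p up to 0.076). The mitochondrial regulators Esrra and Ppargc1a fell to 0.693 and 0.741 of wild type and the glucocorticoid-responsive factor gene Klf15 to 0.638 (edgeR adjusted p = 0.0037, 0.0034 and 0.0016). Lhx1, a factor of nephron patterning, fell to 0.613 without overlap (edgeR adjusted p = 5.7e-06). Factors that rose included Runx1, 5.03-fold, the epithelial factor Elf3 (overlapped), 2.48-fold, and Klf6, 2.25-fold (edgeR adjusted p = 8.5e-08, 2.0e-07 and 3.4e-07). Foxj1, the driver of motile cilia, went from 0.162, 0.535 and 0.975 CPM to 2.4, 2.79 and 6.52 CPM without overlap (log2 fold change 2.82 with SE 0.35, adjusted p = 5.7e-06 in edgeR). The 15 other tested genes of the cilium list gave 1 rise and 1 fall, of Arl13b and Ift172, with log2 fold changes of 0.27 and -0.28 (edgeR adjusted p = 0.03 and 0.0035). Arl13b lost its call without wild-type replicate 2, wild-type replicate 6, knockout replicate 3 or knockout replicate 5 (edgeR adjusted p up to 0.069).

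NF-kappa B is a dimeric transcription factor held in the cytosol by inhibitors whose own genes it switches on, and TNF and interleukin 1 receptors are its best-known activators. In the list of this pathway 23 of 24 genes rose, none fell, and in 22 the groups did not overlap (median 1.45). Over all tested genes 18.1% rose, and 10.8% were higher without overlap. Of the subunit genes, Relb stood at 4.48, 5.19 and 6.69 CPM in wild type and 15.6, 20.7 and 22.9 CPM in knockout and rose 3.71-fold, Nfkb2 (overlapped) went from 16.5, 20.4 and 21.3 to 41.3, 49.5 and 59.8 CPM and rose 2.53-fold, and Rela rose 1.41-fold (edgeR adjusted p = 7.8e-09, 2.1e-08 and 7.0e-05). The genes of inhibitors rose with them. Nfkbia, for the inhibitor I kappa B alpha, stood at 22.5, 25.1 and 30.4 CPM in wild type and 42.8, 47.5 and 53.9 CPM in knockout, and Tnfaip3, for the ubiquitin editor A20, at 6.84, 7.56 and 10.1 and 12.7, 17.8 and 21.5 CPM. Both sets of knockout libraries lay wholly above wild type (edgeR adjusted p = 4.7e-07 and 5.4e-06). Among ligands Tnf went from 0.108, 0.322 and 0.604 CPM to 0.877, 1.52 and 1.71 CPM and the lymphotoxin gene Ltb from 0.432, 1.13 and 1.71 to 1.82, 3.74 and 8.21 CPM (edgeR adjusted p = 0.00017 and 0.00087), and the receptor genes Tnfrsf1b and Tnfrsf12a rose 4.4- and 3.07-fold (edgeR adjusted p = 4.1e-07 and 1.2e-06). Ripk3 and Mlkl, the kinase and the pore protein of necroptosis, rose 3.07- and 2.96-fold from low levels of 1.14 and 1.41 CPM in the median wild-type library (edgeR adjusted p = 1.2e-05 and 7.5e-05). The member that did not pass was Tnfaip2 (overlapped), with a log2 fold change of 0.05.

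Promoter sequences of 4 members of this list that hold a kappa B match are shown because these genes rose together. Of the 19 members with a promoter in the RefSeq table (GRCm38.p6, 250 bases before to 50 after each start), 6 held the motif GGGNNTTTCC or its reverse complement GGAAANNCCC: Nfkb2, Rel, Nfkbia, Tnfaip3, Traf2 and Ltb. In all tested genes with a promoter the share was 2.08%. The list was built from genes of the pathway, some of them known targets of NF-kappa B. Its share of matches is therefore no test of these data. The stretches below are on the strand of the gene, 5′ to 3′, and end at or before the start site; capitals mark the match. They come from chr12:55492648-55492701 (minus strand), chr19:46304701-46304736 (plus), chr10:19015411-19015447 (minus) and chr17:35194395-35194454 (plus), and the matches end 20, 2, 3 and 78 bases before the start.
Nfkbia: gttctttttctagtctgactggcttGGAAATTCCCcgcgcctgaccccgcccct
Nfkb2: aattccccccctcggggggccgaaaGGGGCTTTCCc
Tnfaip3: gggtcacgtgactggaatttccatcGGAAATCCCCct
Ltb: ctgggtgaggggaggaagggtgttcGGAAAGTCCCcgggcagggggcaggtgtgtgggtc
A match is a description of letters and not a shown binding site.

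In the interleukin 1 family 13 of 15 genes rose and none fell (median 1.17). Il1rn, the natural receptor antagonist, stood at 0.144, 0.23 and 0.432 CPM in wild type and 3.97, 5.34 and 7.53 CPM in knockout, a 23.8-fold rise (log2 fold change 4.59 with SE 0.26, adjusted p = 1.2e-09 in edgeR). Il1f6, an epithelial agonist of the family, had 7 counts in the summed wild-type libraries and 3.45, 5.88 and 9.62 CPM in knockout, a ratio of 111 with a counting interval of 53.7 to 277. The alarmin gene Il33 went from 3.72, 4.91 and 6.61 CPM to 15.6, 18 and 33 CPM and the gene of its receptor, Il1rl1, from 0.348, 0.952 and 1.18 to 2.07, 2.95 and 5.28 CPM, both without overlap (edgeR adjusted p = 3.4e-06 and 9.9e-05). Il1b (overlapped) rose 3.59-fold and the inflammasome genes Casp1 and Gsdmd 2.74- and 2.27-fold (edgeR adjusted p = 6.8e-05, 0.00014 and 0.00026), whereas Il1a (overlapped) and Il18 (overlapped) did not pass (log2 fold changes -0.08 and 0.03).

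Genes around interleukin 6 signalling rose in 13 of 18 tested cases and 1 fell (median 0.70), although Il6 and Osm themselves had too few counts to be tested. Lif, a cytokine that signals through the shared receptor gp130, stood at 0.209, 0.594 and 1.12 CPM in wild type and 10.5, 15 and 17.6 CPM in knockout (log2 fold change 4.40 with SE 0.24, adjusted p = 8.4e-10 in edgeR). The feedback inhibitor gene Socs3 went from 2.09, 3.24 and 4.04 to 23.3, 33.4 and 43 CPM and the oncostatin M receptor gene Osmr from 6.96, 8.31 and 10.7 to 33.7, 40.8 and 54.2 CPM (edgeR adjusted p = 2.0e-09 and 7.2e-10). In all 3 genes the lowest knockout library lay above the highest wild-type library. Stat3, the transcription factor of the pathway, rose 1.97-fold (edgeR adjusted p = 2.4e-08), while the receptor genes Il6st and Lifr did not pass (log2 fold changes 0.21 and -0.19). Il6st passed without wild-type replicate 6 or knockout replicate 3 (edgeR adjusted p down to 0.032). Il11ra1 fell to 0.79 of wild type (edgeR adjusted p = 0.0042) as its ligand Il11 rose from 0, 0.29 and 0.374 CPM to 0.824, 1.34 and 2.25 CPM (edgeR adjusted p = 0.00015).

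Sensors and receptors of innate immune cells rose in 21 of 26 cases and 2 fell (median 1.59). Cd14, the lipopolysaccharide coreceptor, went from 5.08, 6 and 7.73 CPM to 29.5, 45.9 and 75.7 CPM and Tlr2 from 2.71, 3.33 and 4.56 to 9.12, 14.7 and 20.7 CPM without overlap (edgeR adjusted p = 3.1e-08 and 9.3e-08). The nucleic acid sensor adaptor Tmem173, for STING, rose 5.69-fold (edgeR adjusted p = 8.8e-08). Nod2 and Nlrc4 fell to 0.718 and 0.678 of wild type with overlapping groups (edgeR adjusted p = 0.032 and 0.012). Nod2 lost its call in 5 of the 12 leave-outs (edgeR adjusted p up to 0.089). Chemokine receptors and integrins of leukocytes rose in 15 of 16 cases, all 15 without overlap (median 1.71), against 10.8% higher without overlap over all tested genes. Ccr2, the receptor of inflammatory monocytes, stood at 4.48, 6.75 and 10.2 CPM in wild type and 31.9, 48 and 69.3 CPM in knockout, Ccr1 at 0.161, 0.264 and 0.385 and 2.16, 3.64 and 5.44 CPM and Cx3cr1 at 4.46, 6.67 and 9.51 and 19.5, 32 and 48.7 CPM (edgeR adjusted p = 9.7e-07, 2.4e-08 and 5.2e-06). The lymphocyte receptor genes Cxcr3 and Cxcr6 (overlapped) rose 2.36- and 2.41-fold (edgeR adjusted p = 0.0018 and 0.00088). Of 11 tested costimulation and regulatory T cell genes 8 rose and none fell, among them Cd86 3.1-fold and Foxp3 (overlapped) 2.47-fold (edgeR adjusted p = 5.3e-06 and 0.0011).

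Leukocyte markers moved with these genes. The summed level of 4 defining macrophage markers was 88.8 to 112 CPM in wild type and 164 to 316 CPM in knockout, and that of 3 neutrophil markers 3.53 to 8.79 and 11.6 to 24.7 CPM. T cell markers summed to 2.54 to 5.01 CPM in wild type and 6.78 to 14.9 CPM in knockout, with all 4 higher, and plasma cell markers to 35.2 to 56.2 and 77.2 to 378 CPM. B cell markers overlapped, at 0.971 to 2.93 and 1.29 to 3.24 CPM. In these bulk samples more cells of a type and more RNA per cell, or fewer cells and less RNA, cannot be told apart. The part of the leukocyte markers in the rises of cytokine, lysosomal and protease genes was not tested.

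**Figure D4:**
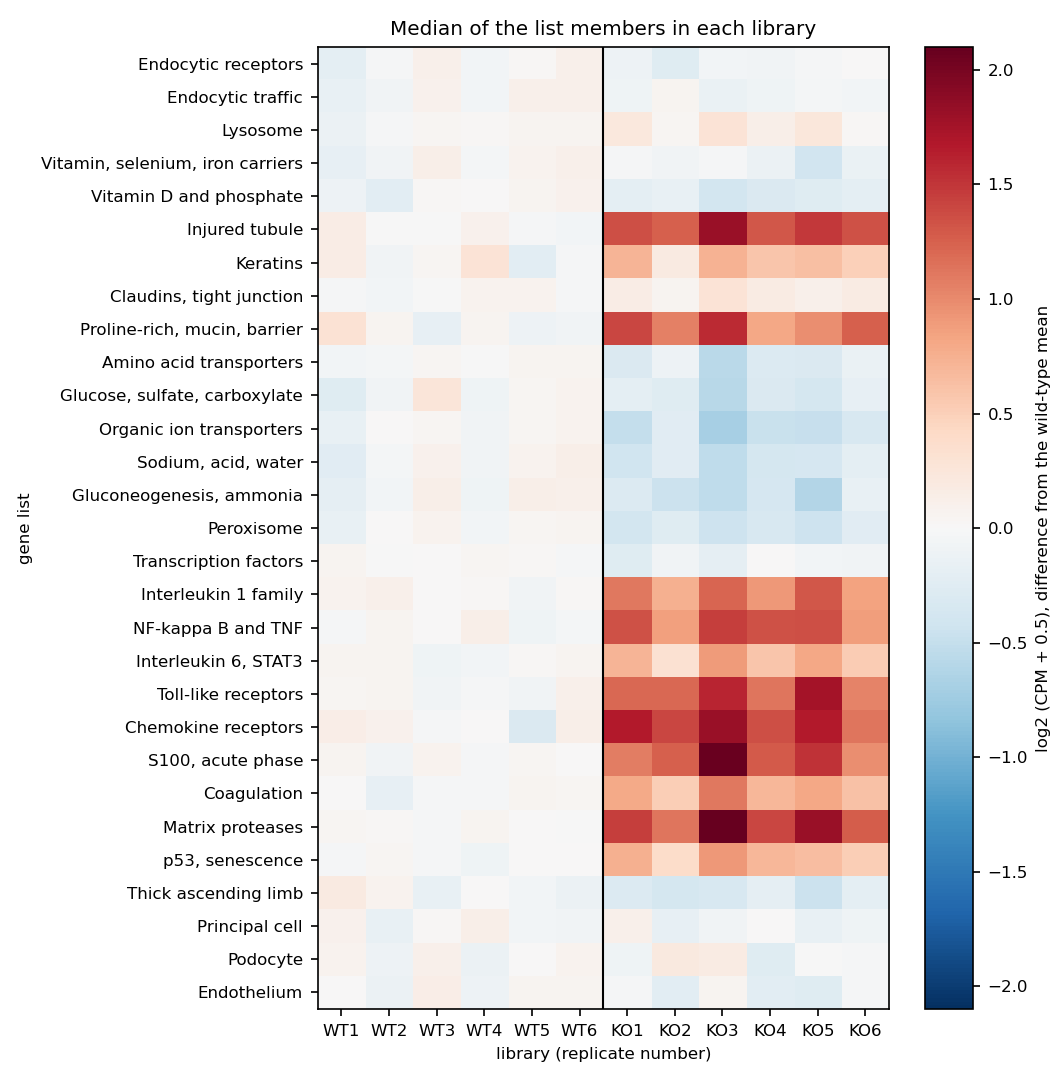
Median of the list members in each library (columns) for each gene list (rows), as the difference of log2 (CPM + 0.5) from the wild-type mean; red is higher and blue lower. Knockout replicate 3 (KO3) has the highest value of the 6 knockout libraries in the rows of injured tubule, NF-kappa B and matrix protease genes and the lowest in the row of organic ion transporters.

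The size of the difference varied among knockout libraries. Knockout replicate 3 had the highest list level for injured tubule genes, 1.82 above the wild-type mean on the log2 (CPM + 0.5) scale against a knockout median of 1.35, and also the lowest for organic ion transporters, -0.69 against -0.48. Knockout replicate 2 had the lowest level of the 6 for injured tubule genes (1.25), NF-kappa B genes (0.86 against a median of 1.34) and p53 targets (0.38 against 0.68), and the highest for organic ion transporters (-0.24) among knockout libraries. In the lists of injured tubule, NF-kappa B, interleukin 1 and protease genes every knockout library nevertheless lay above every wild-type library, and in the lists of organic ion and amino acid transporters and peroxisomes every one lay below. Of the knockout libraries, replicate 2 held the most Lrp2, 607.6 CPM, and replicate 3 the least, 207.6 CPM. The relation of Lrp2 to the list levels was not tested.

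Fibrinogen and other coagulation genes, which in healthy animals are mostly made by the liver, rose in 16 of 23 tested cases and 2 fell (median 0.67). Fgb stood at 0.654, 0.79 and 1.39 CPM in wild type and 19.6, 32.3 and 41.7 CPM in knockout, Fgg (overlapped) at 6.58, 8.89 and 17.6 and 146, 256 and 285 CPM and Fga at 22.8, 30.5 and 51 and 156, 215 and 241 CPM. All 3 chains of fibrinogen were higher in every knockout library, with rises of 35.1-, 23.9- and 5.91-fold (edgeR adjusted p = 3.8e-10, 9.7e-08 and 2.1e-06). Of 6 tested genes in a list of liver and plasma proteins 1 rose (Trf, for transferrin) and 1 fell (Ttr), Alb did not pass (log2 fold change -0.36), and the summed level of 3 liver markers was 9.51 to 16.3 CPM in wild type and 4.83 to 14.5 CPM in knockout. Alb passed without knockout replicate 2 (edgeR adjusted p = 0.033). The anticoagulant protein S gene Pros1 rose 2.83-fold (edgeR adjusted p = 1.9e-07). F5, the cofactor of prothrombin activation, and Proc, for protein C, which inactivates it, were the members that fell, to 0.34 and 0.747 of wild type (edgeR adjusted p = 6.6e-06 and 0.0008). Acute phase and S100 genes rose in 13 of 16 tested cases and 1 fell (median 1.52). Saa1 had 1 count in the wild-type libraries, in replicate 1, and 1.46, 2.4 and 3.7 CPM in knockout, a ratio of 302 with a 95% counting interval of 53.8 to 12000, and shares sequence with its paralogs. Cp (overlapped), for the copper oxidase ceruloplasmin, went from 39.1, 43.3 and 67.1 CPM to 171, 260.2 and 331 CPM and S100a11 from 58, 63.5 and 68.7 to 122, 147 and 182 CPM (edgeR adjusted p = 2.2e-07 and 1.0e-08). Serpina3n, an acute phase serine protease inhibitor, rose 30.7-fold, from 0.302, 0.862 and 3.82 CPM to 30.4, 37.3 and 76.8 CPM (edgeR adjusted p = 5.0e-05), with a log2 fold change of 4.78 and of 5.47 without wild-type replicate 1.

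The motif TGANTCA, bound by AP-1 proteins such as the FOS and JUN family and identical on both strands, was found in the promoters of 7 of 16 coagulation genes with a promoter: Fgb, F2r, F3, Plaur, Tfpi2, Procr and Anxa2 (overlapped). Coagulation was among the 55 lists in which each motif was searched. In other lists that rose, 4 of 14 matrix protease and 4 of 18 injured tubule genes with a promoter held it. So did 1 of 20 innate sensor genes, 1 of 10 chemokine receptor genes and 0 of 6 keratins. Plaur and Anxa2 belong to both the coagulation and the injured tubule list. In lists with more falls than rises, 3 of 18 peroxisomal, 4 of 25 xenobiotic and 3 of 13 sex-dimorphic genes held the motif. It was found in 1 of 24 organic ion transporter, 1 of 15 amino acid transporter and 0 of 15 gluconeogenesis genes. In all 27025 genes of the promoter table, tested or not, the share with a match was 8.97%. Among all 11849 tested genes with a promoter the share with a match was 6.69% (95% Wilson interval 6.26% to 7.16%). It was 10.16% of the 2264 genes that rose (8.98% to 11.47%), 11.83% of the 964 whose log2 fold change was 1 or more and 16.99% of the 259 with 2 or more (12.91% to 22.04%). Among the 1656 genes that fell it was 6.76%, near the share of all tested genes. Some genes that rose, such as Sprr2f and Mmp7, had almost no wild-type counts and entered the test through the knockout libraries. The part of such genes in these shares was not tested. The kappa B motif was in 2.08% of all tested genes, 3.45% of those that rose, 7.34% of those that rose by at least 2 and 1.57% of those that fell. Interferon-stimulated response elements, searched as GAAANNGAAA or TTTCNNTTTC, were in 3.87% of all tested, 6.45% of the genes that rose and 3.26% of those that fell. The HNF4 motif CAAAGTCCA or TGGACTTTG was in 0.56% of all tested genes, 0.97% of those that fell and 0.71% of those that rose, with overlapping intervals. Among larger changes the order for HNF4 was the reverse. Its share was 1.14% of the genes that rose by at least 1 and 1.16% of those that rose by at least 2. Among genes that fell with a log2 fold change of -0.5 or lower it was 0.73%, and these intervals overlapped too. An HNF1 motif was in 0.08% of all tested genes, 0.12% of those that fell and 0.09% of those that rose. Matches of different motifs were counted separately and may overlap in a promoter. Genes had 1.19 promoters each in the set that rose by at least 2 and 1.28 in all tested, a gene counting where any of its promoters held a match. Intervals cover counting error over genes, which are not independent.

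**Figure D5:**
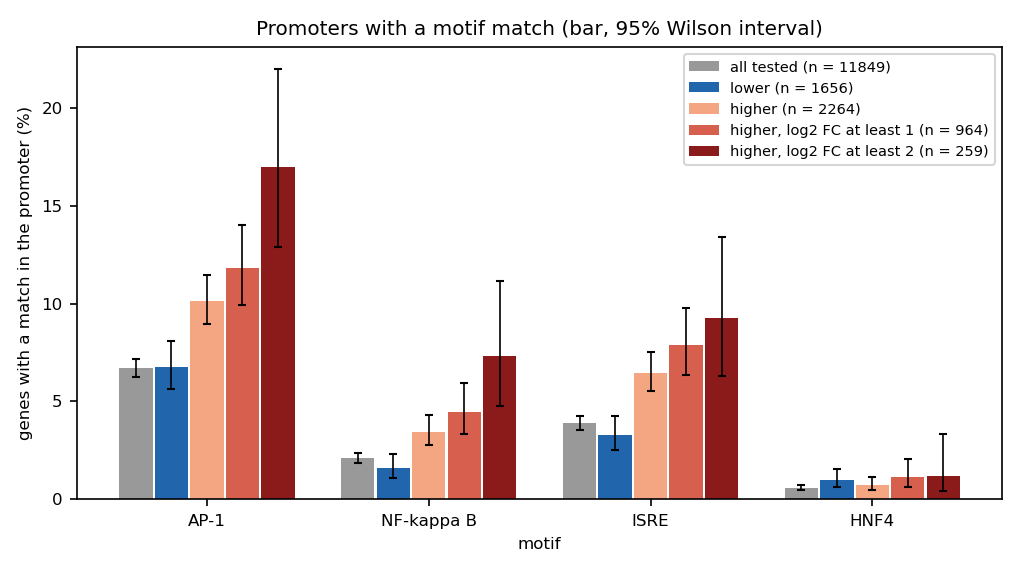
Share of genes with a motif match in the RefSeq promoter (y axis, percent, from 0) for 4 motifs (x axis) in all tested genes and in the genes that fell or rose; bars carry 95% Wilson intervals and n is the number of genes with a promoter. The AP-1 share is 6.69% in all tested genes and 16.99% in genes with a log2 fold change of 2 or more. In the whole promoter table, which is not drawn, it is 8.97%.

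For 5 of the genes described here the AP-1 match is shown in its surroundings, because their rises are among the largest of their lists. Not every gene with a match rose. The motif was also found for Il1a, Ddit3, Hspa5 and Rbp4, which did not pass, and for Slc26a1, which fell. The stretches are from RefSeq promoters (GRCm38.p6), on the gene's strand, 5′ to 3′, with the match in capitals. They lie at chr3:92364965-92365021 (plus strand), chr2:24336694-24336750 (plus), chr11:4257318-4257371 (plus), chr3:83050005-83050061 (minus) and chr5:134947061-134947117 (minus).
Sprr2f: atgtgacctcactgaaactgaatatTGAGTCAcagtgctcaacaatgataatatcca
Il1rn: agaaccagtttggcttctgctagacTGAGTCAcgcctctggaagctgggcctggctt
Lif: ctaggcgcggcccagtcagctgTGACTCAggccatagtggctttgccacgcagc
Fgb: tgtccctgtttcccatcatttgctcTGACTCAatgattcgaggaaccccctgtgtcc
Cldn4: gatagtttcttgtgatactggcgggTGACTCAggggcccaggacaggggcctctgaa
The matches end 191, 135, 222, 167 and 152 bases before the start site, and Sprr2f, Il1rn and Cldn4 rose as given above.

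Matrix proteases and their inhibitors rose in 20 of 23 tested cases and 1 fell, with the median of 1.89 already given. Mmp7 (overlapped), for matrilysin, had 6 counts in the summed wild-type libraries and 4.33, 7.31 and 17.3 CPM in knockout, a ratio of 172 with a counting interval of 78.6 to 469. Mmp3, Mmp14 and Mmp2 rose 24.3-, 5.7- and 6.7-fold (edgeR adjusted p = 3.6e-07, 3.6e-05 and 0.00011), and the log2 fold change of Mmp3 went from 4.37 to 5.07 without wild-type replicate 1. Mmp14, the membrane protease that activates the product of Mmp2, stood at 10.3, 12.5 and 14 CPM in wild type and 40.6, 61 and 129.6 CPM in knockout. Inhibitor genes diverged: Timp1 (overlapped) rose 101-fold to 14.1, 25.8 and 49.1 CPM, whereas Timp3 (overlapped) fell to 0.769 of wild type with overlapping groups (edgeR adjusted p = 1.3e-06 and 0.04). Timp3 lost its call in 7 of the 12 leave-outs (edgeR adjusted p up to 0.1). Adamts1, a protease of the matrix proteoglycan versican, rose 2.71-fold, from 49.9, 53.8 and 63.8 CPM to 104, 150.5 and 178 CPM (edgeR adjusted p = 2.4e-08), and the collagen cross-linking enzyme gene Lox (overlapped) 5.54-fold (edgeR adjusted p = 7.3e-05).

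Growth factor genes rose in 13 of 28 tested cases and fell in 6 (median 0.21). Both tested activin subunit genes rose: Inhbb went from 2.21, 2.5 and 3.12 CPM to 10.1, 13.8 and 18.7 CPM and Inhba (overlapped) from 0.161, 0.35 and 0.54 to 1.18, 2.58 and 6.16 CPM, and Fst, for their antagonist follistatin, rose 2.8-fold (edgeR adjusted p = 2.8e-09, 1.2e-05 and 9.0e-06). Grem1, a secreted antagonist of bone morphogenetic proteins, had 12 counts in the summed wild-type libraries and 1.24, 2.52 and 3.41 CPM in knockout, a ratio of 25.3 with a counting interval of 14.3 to 49.4, and the BMP genes Bmp7 and Bmp4 fell to 0.818 and 0.824 (edgeR adjusted p = 0.026 and 0.032). Bmp7 lost its call in 5 of the 12 leave-outs (edgeR adjusted p up to 0.069). Bmp4 lost its call without wild-type replicate 3, wild-type replicate 4, wild-type replicate 5 or knockout replicate 5 (edgeR adjusted p up to 0.073). Pdgfb (overlapped) rose 2.15-fold and its receptor gene Pdgfrb 2.02-fold (edgeR adjusted p = 8.6e-08 and 0.00051). In the EGF family 5 of 12 tested genes rose and 2 fell (median 0.12, and 0.25 with library size as the sole scaling). The main kidney ligand fell and some other ligands rose. Egf (overlapped) stood at 1591, 1808 and 1889 CPM in wild type and 570.5, 773 and 917 CPM in knockout, without overlap (log2 fold change -1.21 with SE 0.10, adjusted p = 8.9e-08 in edgeR), and the receptor's feedback inhibitor gene Errfi1 fell to 0.633 (edgeR adjusted p = 0.0013). Nrg1, Hbegf and Tgfa rose 2.08-, 1.38- and 1.44-fold (edgeR adjusted p = 1.0e-05, 0.00029 and 0.0032), and the receptor gene Egfr did not pass (log2 fold change 0.09, SE 0.12).

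Vasoactive genes rose in 9 of 23 tested cases and fell in 4 (median -0.01, and 0.12 with library size as the sole scaling). Edn1 (overlapped), for the vasoconstrictor endothelin 1, stood at 1.39, 2.47 and 4.05 CPM in wild type and 12.6, 14 and 16.6 CPM in knockout, without overlap (log2 fold change 2.43 with SE 0.18, adjusted p = 2.0e-08 in edgeR). Ptgs2, the inducible cyclooxygenase, rose 2.9-fold from a low level of 0.385, 0.442 and 1.12 CPM, and the angiotensinogen gene Agt 1.43-fold (edgeR adjusted p = 0.0028 and 0.012). The renin gene Ren1 and the receptor gene Agtr1a did not pass (log2 fold changes -0.22 and -0.06), and the converting enzyme gene Ace (overlapped) and kallikrein gene Klk1 (overlapped) fell to 0.737 and 0.719 of wild type (edgeR adjusted p = 0.0038 and 0.02). Klk1 lost its call without wild-type replicate 4 or knockout replicate 3 (edgeR adjusted p up to 0.052).

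Targets of p53 and senescence genes rose in 15 of 23 tested cases and none fell (median 0.66). Cdkn1a, the cell cycle inhibitor p21, stood at 8.66, 9.61 and 13.4 CPM in wild type and 22.9, 28.1 and 29.7 CPM in knockout, and Pmaip1, the death-promoting protein NOXA, at 9.05, 10.7 and 12.1 and 21.6, 29.8 and 31.3 CPM. Neither pair overlapped (edgeR adjusted p = 2.0e-08 and 2.1e-08), while Mdm2, Ccng1 and Bax, other targets of p53, did not pass (log2 fold changes 0.13, 0.10 and 0.21). Cdkn2a had too few counts to be tested. The stress response lists split. Atf3 went from 0.917, 1.42 and 2.1 CPM to 8.47, 9.67 and 11.4 CPM and the asparagine synthetase gene Asns rose 2.71-fold (edgeR adjusted p = 3.6e-09 and 7.8e-06), but the chaperone gene Hspa5 and the death factor gene Ddit3 did not pass (log2 fold changes 0.05 and -0.03); in all 8 of 23 rose and 1 fell (median 0.16). In the cholesterol list 10 of 26 rose and 4 fell (median 0.23). The scavenger receptor gene Msr1 went from 0.385, 0.492 and 0.863 CPM to 3.04, 4.57 and 6.79 CPM and the efflux pump gene Abca1 rose 1.55-fold (edgeR adjusted p = 8.9e-08 and 0.00021). The lipase gene Lpl fell to 0.493 of wild type, 567, 1190.0 and 1362 CPM against 322, 444 and 982 CPM, with overlapping groups (edgeR adjusted p = 0.02). Lpl lost its call without knockout replicate 3 (edgeR adjusted p = 0.054). Cytosolic ribosomal protein genes rose in 13 of 20 cases and none fell, each by little: the median was 0.32 and the largest rise, of Rps4x, 1.37-fold (edgeR adjusted p = 0.00034).

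Segment and vessel genes were described by their lists, and the differences between lists were not tested. Of 16 genes of proximal tubule segments S1 and S2, 11 fell and Gc rose (median -0.48), and in the S3 list 8 of 14 fell and none rose (median -0.41). In the thick ascending limb list 8 of 16 fell and 2 rose (median -0.29); Slc12a1, the loop diuretic target, fell to 0.64 of wild type (edgeR adjusted p = 9.2e-05), whereas Umod (overlapped), for uromodulin, stood at 2773, 3116 and 3531 CPM in wild type and 2761, 3038 and 3410.0 CPM in knockout and did not pass (log2 fold change -0.03, SE 0.09). Among principal cell genes 5 of 16 fell and 2 rose (median 0.01): the water channel genes Aqp3 and Aqp4 (overlapped) fell to 0.542 and 0.521 (edgeR adjusted p = 1.8e-06 and 0.0018), and Aqp2 and Scnn1b (overlapped) did not pass (log2 fold changes 0.01 and 0.10). The distal convoluted tubule and intercalated cells had no list, but all 3 defining markers of each fell. Their sums were 2280 to 3210 CPM in wild type and 1130 to 2150 CPM in knockout for the distal convoluted tubule. For intercalated cells they were 115 to 160 and 76.2 to 98.4 CPM. Podocyte genes gave 2 rises and 2 falls among 14 (median 0.06), near the shares of all tested genes. The slit diaphragm gene Nphs1 (overlapped) stood at 0.792 of wild type (edgeR adjusted p = 0.0032). In the endothelial list, which counts Vegfa among the falls, 9 of 22 tested genes fell and none rose. Its median was -0.03 (0.11 with library size as the sole scaling). Vegfa, the endothelial growth factor made by tubules and podocytes, went from 462, 505 and 645 CPM to 291, 354 and 409 CPM without overlap (log2 fold change -0.62 with SE 0.10, adjusted p = 0.00011 in edgeR), and its receptor gene Kdr fell to 0.721 (edgeR adjusted p = 0.0027), but the pan-endothelial genes Pecam1 and Cdh5 did not pass (log2 fold changes 0.06 and 0.11). Smooth muscle and pericyte genes rose in 6 of 15 cases and 1 fell (median 0.38): Des rose 1.5-fold and Myh11 fell to 0.595, while Acta2, the usual myofibroblast marker, did not pass (0.48, edgeR adjusted p = 0.18).

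Whether residual Lrp2 RNA varied with other genes was asked among the knockout libraries. Over the 6 knockout libraries, log2 CPM of Lrp2 was compared with that of Lcn2, Havcr1, Spp1 and Slc34a1, 4 relations in all. Pearson's r was -0.21 for Lcn2 (exact permutation p = 0.69, adjusted 0.69; Spearman's rho -0.20, p = 0.71, adjusted 0.71) and -0.64 for Havcr1 (p = 0.16, adjusted 0.64; rho -0.77, p = 0.10, adjusted 0.41). It was -0.43 for Spp1 (p = 0.44, adjusted 0.64; rho -0.43, p = 0.42, adjusted 0.71) and 0.36 for Slc34a1 (p = 0.48, adjusted 0.64; rho 0.31, p = 0.56, adjusted 0.71). No relation passed in these exact permutation tests, taken on both sides. The smallest possible p was 0.0014 for Pearson's r and larger for Spearman's rho, where the reversed order counts as well. Knockout replicates 2 and 3, with the highest and the lowest Lrp2, lay farthest from its median. Without them r was -0.19 for Lcn2, -0.77 for Havcr1, -0.60 for Spp1 and -0.11 for Slc34a1. With 6 libraries a relation of moderate strength could not be detected.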

How the data were processed

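RNA-seq of mouse kidney was deposited as 1 file of raw counts for each library, with reads assigned to Ensembl genes, per the file headers. Per the submitters' processing notes the authors used fastp, STAR 2.5 and HTSeq 0.6.1 with build mm10; no source used here gives options, strand setting or annotation release. RNA was extracted with a Maxwell RSC kit and libraries made with a NEBNext Ultra kit, per the labels' protocols. Groups were taken from the labels, 6 libraries each, with 15.6 to 34.1 M counts. No pair of libraries in a group agreed within sampling noise (lowest chi-square per degree of freedom 6.13). Symbols came from GENCODE M21 (54495 of 54532 identifiers matched; the others held at most 0.00528% of a library) and promoters from RefSeq (GRCm38.p6, 11849 of 16817 tested symbols).

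Genes were filtered with filterByExpr (minimum count 10) over the 12 libraries and tested with edgeR 4.0.16 (R 4.3.3; TMM scaling, robust quasi-likelihood test, Benjamini-Hochberg adjustment over all tested genes). The script was tested on simulated data with known fold changes. DESeq2 1.42.0, other scalings and filters, a fit of all 24 libraries, a replicate block, gene subsets, a fold change minimum and leave-outs were alternatives. Lists carry no test: the called members and the median are given beside those of all genes. The members, lists and alternatives were chosen with earlier results of these data known. Genes were named by rule: Lrp2, the 10 called genes per direction with the largest log2 fold change at a mean of at least 5 CPM without overlap, the 10 per direction with the largest CPM difference, and, per list, up to 4 called members with the smallest adjusted p, the member with the highest CPM and called members against the list's direction. Of 250 genes given with values, 82 lie outside this rule and were chosen after their values were seen. Some genes that meet the rule are not reported here. Counting ratios, intervals and floors (3 counts over the summed libraries, 95% level) cover counting error only. Counts of the 12-week libraries entered only the fit of all 24.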

Additional observations from a re-analysis of the deposited data

Results flagged for a closer look

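Within each group, the highest or lowest library stood apart from the other 5 by more than the critical share of the group's range (Dixon's 95% value for 6 samples) in 32 of 497 groups of values for the genes named above; chance alone flags about 1 group in 20 at this limit. Values are CPM, and the nearest of the other libraries follows each. Knockout replicate 2 stood apart at 31.6 for Car3 (nearest 18), 371 for Ccng1 (nearest 254), 16.2 for Ddit3 (nearest 13.4), 982 for Lpl (nearest 545), 2482 for Selenop (nearest 1923) and 10060.0 for mt-Nd2 (nearest 4713). Knockout replicate 3 stood apart at 22.9 for Fcrls (nearest 10.8), 998 for Igha (nearest 462) and 53.3 for Mmp2 (nearest 26.5). Knockout replicate 5 stood apart at 6.49 for Casp1 (nearest 3.79), 231 for Folr1 (nearest 276), 103 for Haao (nearest 139.7), 25.6 for Myh11 (nearest 17.1), 507 for Slc22a12 (nearest 707) and 230.5 for Sod2 (nearest 254). Knockout replicate 6 stood apart at 236 for C3 (nearest 413), 345 for Cyp4a12a (nearest 151), 104 for Klf15 (nearest 73.6) and 4786 for Spp1 (nearest 8708). Wild-type replicate 1 stood apart at 0.0287 for Saa1 (nearest 0). Wild-type replicate 3 stood apart at 15.7 for Alb (nearest 11.4), 111 for Car14 (nearest 76.2), 39.7 for Cdh5 (nearest 32.6), 55.7 for Nqo1 (nearest 43), 6.31 for Slc38a1 (nearest 7.73) and 287 for Slc5a12 (nearest 187). Wild-type replicate 4 stood apart at 1.93 for Casp1 (nearest 1.32), 3.1 for Rbp4 (nearest 1.29), 92 for Slc26a4 (nearest 71.6) and 118 for Slc38a2 (nearest 90.2). Wild-type replicate 5 stood apart at 13.4 for Cdkn1a (nearest 10.1) and 17.6 for Fgg (nearest 10.3). Knockout replicate 2, the library with the highest mitochondrial share and the outlying second principal component, gave 6 of these values; its part in the results is given as the counts without it, and the cause was not tested.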

How the results depend on the processing

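Lrp2 kept its direction and call under every alternative run, with log2 fold changes of -2.68 to -2.35 when each of the 12 libraries was left out. The number of called genes stayed within 1.5 times of 5308 except where a log2 fold change of at least 1 was also required (1471 called, 1292 higher and 179 lower); genes lower also moved with library size as the sole scaling (1137). Leaving out each library gave 4684 to 5934 called, 2795 to 3335 higher and 1889 to 2599 lower, the largest without knockout replicate 2. DESeq2 called 3087 higher and 2663 lower. Of the 210 named genes that passed, none changed sign under the alternatives run, 24 lost the call under at least 1 and 12 in at least 1 leave-out. Genes that had not passed changed sign with library size as the sole scaling, at Agtr1a (0.07), Anpep (0.01), Clcn5 (0.02), Cldn2 (0.05), Dab2 (0.01), Ddit3 (0.10), Enpep (0.05), Il1a (0.04), Ldha (0.08), Nqo1 (0.06) and Umod (0.09). When libraries were left out, genes near 0 changed sign within these ranges: Aqp2 (-0.11 to 0.14), Ccng1 (-0.06 to 0.15), Ddit3 (-0.09 to 0.01), Ddx3y (-0.01 to 0.08), Hspa5 (-0.03 to 0.14), Il18 (-0.08 to 0.11), Il1a (-0.26 to 0.11) and Nqo1 (-0.10 to 0.02). Aqp2 was also at -0.02 with all 24 libraries in 1 fit and at -0.01 without genes overlapped on the opposite strand. Without wild-type replicate 1 the fitted log2 fold changes of Grem1, Il1f6 and Saa1 were 5.57, 7.25 and 8.54. Of 50 list medians, 22 moved by more than the SD of the knockout libraries under at least 1 alternative, 20 of them with library size as the sole scaling; leaving out 1 library turned the medians of the adipocyte, endothelium, podocyte, principal cell and vasoactive lists. The relations of Lrp2 had leave-one-out ranges of r for Lcn2 (-0.62 to 0.32), Havcr1 (-0.85 to -0.42), Spp1 (-0.59 to -0.37) and Slc34a1 (-0.02 to 0.62), so the signs for Lcn2 and Slc34a1 turned, and r for Slc34a1 was -0.11 without knockout replicates 2 and 3. The calls lost with all 24 libraries in 1 fit had edgeR adjusted p-values of 0.052 to 0.1 and those lost without a filter on low counts 0.053 to 0.11. Genes that had not passed and did so under an alternative other than a leave-out or the block were Cdh5, Il6st, Mdm2, Pax8 and Slc5a1 with library size as the sole scaling, Il6st with upper-quartile scaling, Cyp24a1 and Lifr with all 24 libraries, Upk2 without a filter and Cyp24a1 and Upk2 with DESeq2. The cause of these changes was not tested. A sex term was not run because all libraries held Y-linked transcripts.

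Same-numbered libraries did not deviate together (correlations of -0.06 to 0.07, and 0 of 6 wild-type libraries correlated best with their own number). Correlations over 6 pairs cannot settle what same-numbered samples share besides the number, and this was not tested. With the replicate block, 4946 genes were called, 2869 higher and 2077 lower, Lrp2 stood at -2.56 and Aqp2 at -0.01. Under the block Arl13b, Cyp27b1, Cyp4a12a, Nod2 and Ttr lost their calls (edgeR adjusted p = 0.055, 0.084, 0.11, 0.08 and 0.1) and Upk2 gained one (0.018).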
